A study of Sus scrofa with 5 samples.

Results

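The miR-199 and miR-214 microRNAs (miRNAs) were followed across pig embryos, stem cell-like cells and fibroblasts. Members were chosen by name: every mature name that begins with ssc-miR-199a or ssc-miR-199b, and ssc-miR-214. The rule gave 10 of the 493 rows of the count table and 5 of its 411 mature names: ssc-miR-199a-3p, ssc-miR-199a-5p, ssc-miR-199b-3p, ssc-miR-199b-5p and ssc-miR-214. The 3p names had almost the same counts and were counted once, as miR-199-3p, which left 4 members. Blastocysts (BLs) were collected on day 7 after electrical, sperm-free activation of oocytes, with pooled embryos in each of 2 libraries, BL_1 and BL_2. ES-like cells, which resemble embryonic stem cells, were derived from expanded day 7 blastocysts. They were grown in serum with stem cell factor and basic fibroblast growth factor on mitomycin C-treated mouse embryonic fibroblasts. PEBs were embryoid bodies made from detached ES-like colonies in hanging drops without the cytokines, and PFFs were fibroblasts grown in serum from what was left of fetuses, about 30 days old, without head, limbs and inner organs. ES-like cells, PEBs and PFFs had 1 library each, so differences among them have no replicate check. No source says whether the BL pools were independent batches, so p-values measure only the spread between these libraries.

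miRNAs are cut from a hairpin precursor, and either arm of the hairpin (5p or 3p) can yield a mature miRNA that pairs with target mRNAs through its seed. In mammals the miR-199a and miR-214 hairpins are made together from a transcript that runs antisense within the dynamin 3 gene, and other miR-199 copies lie antisense within related dynamin genes. They are known for expression in mesenchyme, where the transcription factor Twist1 drives the shared transcript, and for roles in fibroblast activation and skeletal development. Their places in pig were read from RefSeq gene positions (assembly Sscrofa11.1, used here for gene names and neighbours only). mir-214 and mir-199a-1 were adjacent miRNA genes inside DNM3, mir-199a-2 lay inside DNM2 and mir-199b inside DNM1.

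Mature miRNA reads numbered from 113743 in BL_1 to 27071931 in PFFs, and BL_2 had 2782150, ES-like cells 6372500 and PEBs 15849954. Levels are given in RPM, the reads of a miRNA per 1000000 mature miRNA reads of the library, and 1 read equals 8.79 RPM in BL_1 and 0.0369 RPM in PFFs. A miRNA without a read could still be present at up to 26.4 RPM in BL_1 and 1.08 RPM in BL_2 (a limit of 3 reads). Intervals cover counting error only, since reads of amplified libraries are not independent molecules. From summed rows they are too narrow wherever the same reads were counted at several precursors. In bulk libraries, fewer cells that make a miRNA and less of it per cell cannot be told apart. A sheet of the study exchanges the totals of ES-like cells and PFFs, and the column names of the table were followed here. By these names, miR-363, of the pluripotency list, stood at 41258 RPM in ES-like cells and 280.0 RPM in PFFs, and miR-143-3p, of the mesenchymal list, at 13226 and 101507 RPM. All 7 pluripotency miRNAs were more than 2-fold lower in PFFs, beside 52.5% of the 295 miRNAs tested. Of 14 mesenchymal miRNAs, 8 were more than 2-fold higher in PFFs, beside 16.6% of the 295, and 1 was lower. That was miR-31, at 349 RPM in ES-like cells and 23.1 RPM in PFFs. miR-29a, at 3486 and 1910 RPM, was also lower in PFFs, by under 2-fold. The reads of feeder cells and pig cells also cannot be told apart in these counts, which matters for ES-like cells.

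The table lists a mature miRNA once for each precursor that could give it, and most of the members' reads stood at several precursors. In PFFs, ssc-miR-199a-3p had 481175 reads at mir-199a-1, 470275 at mir-199a-2 and again 470275 at mir-199b. In PEBs it had 442023, 416317 and 416317 reads, and in ES-like cells 59002, 54984 and 54984. BL_1 had 8, 7 and 7 reads and BL_2 had 117, 111 and 111. The rows of mir-199a-2 and mir-199b were equal in each of the 5 libraries. ssc-miR-199b-3p differed from ssc-miR-199a-3p by 30 of its 1421755 summed reads in PFFs, by 9 in PEBs, by 3 in ES-like cells and by 0 in both BL libraries. ssc-miR-199a-5p had 320146 and 319715 reads at its mir-199a-1 and mir-199a-2 rows in PFFs, 252182 and 252150 in PEBs, and 55424 and 55408 in ES-like cells. In BLs, its rows were equal, with 3 reads in BL_1 and 37 in BL_2. ssc-miR-199b-5p and ssc-miR-214 had 1 row each. The rows thus carried nearly the same counts over and over, so values from the sum of the rows, the scale used unless stated otherwise, are set beside values from the largest row of each name.

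miR-199-3p, a miRNA known to repress mTOR and MET, was the most abundant member in each library. BL_1 had 193 RPM (95% Wilson interval 128 to 293, from 22 summed reads) and BL_2 had 122 RPM (110 to 136), whereas ES-like cells reached 26516 RPM, PEBs 80420 RPM and PFFs 52517 RPM. Both BL libraries were low and the 3 cultured libraries high, without overlap. By summed reads it ranked 6th in ES-like cells, 2nd in PEBs and 3rd in PFFs, but 88th in BL_1 and 110th in BL_2. From the largest row, per 1000000 reads of the largest rows, the values were 84.8, 50.6, 11231, 36874 and 20329 RPM in the same order. The intervals were then 42.9 to 167 RPM for BL_1 (8 reads) and 42.2 to 60.6 RPM for BL_2.

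miR-199a-5p, which is known to repress caveolin-1 in fibroblasts, came to 52.8 RPM for BL_1 (24.2 to 115, 6 summed reads) and 26.6 RPM for BL_2 (21.2 to 33.4), against 17392 RPM for ES-like cells, 31819 RPM for PEBs and 23636 RPM for PFFs. It followed miR-199-3p, with PEBs highest in RPM and BLs far below each culture. From the largest row, it had 31.8, 16.0, 10550, 21037 and 13526 RPM. The intervals were then 10.8 to 93.5 RPM for BL_1 (3 reads) and 11.6 to 22.0 RPM for BL_2.

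miR-199b-5p, the arm particular to mir-199b, was without a read in BL_1 and at 7.55 RPM in BL_2 (4.94 to 11.5, 21 reads). ES-like cells had 239 RPM of it, PEBs 487 RPM and PFFs 1337 RPM. It was the only one of the 4 members with its highest RPM in PFFs rather than in PEBs, and for the others the order of PEBs and PFFs turned with other scalings (given further on). miR-214, the partner of mir-199a-1 in DNM3 and a known regulator of EZH2, had no read in BL_1 and 2 reads in BL_2 (0.719 RPM, 0.197 to 2.62). The cultures held 322 RPM (ES-like cells), 774 RPM (PEBs) and 516 RPM (PFFs). Its level in BL_2 rests on those 2 reads, and 0 reads in BL_1 leave a level of up to 26.4 RPM possible. Together, the 4 members held 0.0246% of the reads of BL_1, 0.0157% of BL_2, and 4.45%, 11.4% and 7.80% of those of ES-like cells, PEBs and PFFs. From the largest rows, these shares were 0.0117%, 0.00765%, 2.25%, 5.96% and 3.60%.

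**Figure D1:**
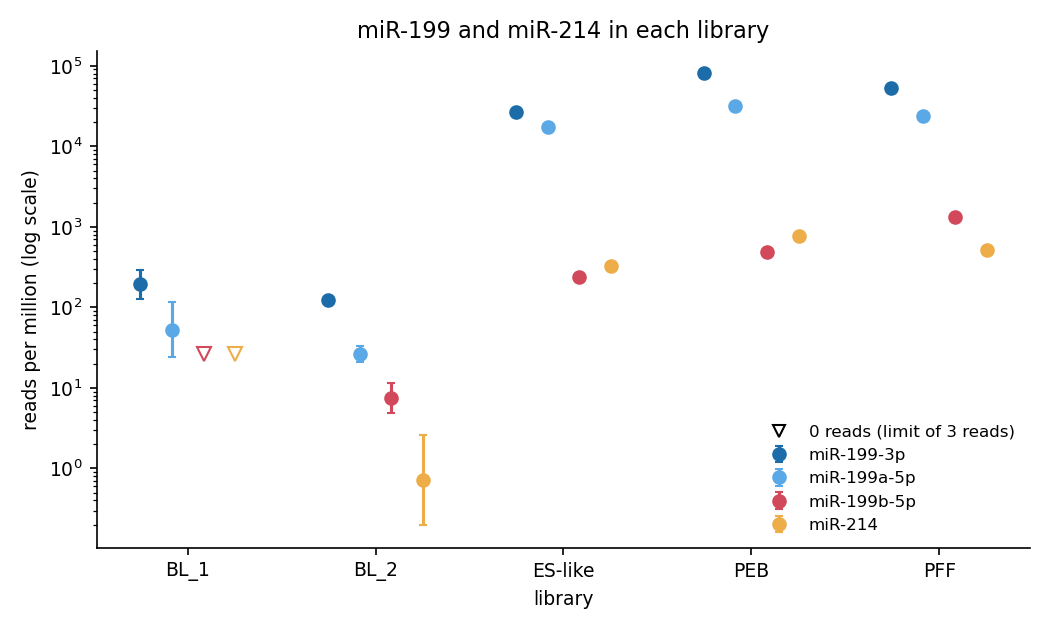
Levels of the 4 members in RPM (log axis) in each of the 5 libraries, from summed precursor rows. Bars are 95% Wilson intervals of the summed reads, too narrow where the same reads were counted at several precursors. Open triangles mark 0 reads, drawn at the limit of 3 reads (26.4 RPM in BL_1). Each member lies higher in ES-like cells, PEBs and PFFs than in both BL libraries, and in RPM, though not with other scalings, miR-199b-5p alone is highest in PFFs, at 1337 RPM.

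The BL libraries were compared with the 3 cultured libraries, which asks how embryos differ from cells in culture. miR-199-3p, miR-199a-5p and miR-214 were higher in cultured cells, and miR-199b-5p did not pass the test. Of the miRNAs, 295 passed a filter of over 5 reads in 2 or more libraries. Among these, edgeR's quasi-likelihood test called 35 at a Benjamini-Hochberg adjusted p under 0.05, of which 16 (5.42%) were higher and 19 (6.44%) lower in cultured cells. All 5 member names were tested and 4 of them were among the 16. These 4 include both 3p names, which had almost the same counts and stand for miR-199-3p alone. For miR-199a-5p the log2 fold change was 9.46 ± 1.26 (standard error), with an edgeR adjusted p of 0.0163. For miR-199-3p it was 8.58 ± 1.36 and for miR-214 9.68 ± 1.46, both with an edgeR adjusted p of 0.0210. For miR-199b-5p it was 7.29 ± 1.83, and the edgeR adjusted p was 0.0504. The median log2 fold change over all 295 was 1.30, far below that of any member. Each member was higher in 3 of 3 cultured libraries than in both BL libraries. The PEBs came from ES-like cells, so these libraries share a cell source, and the fit treats all 3 cultures as independent.

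The calls rested on few libraries of different cell types. Without BL_1 the edgeR adjusted p of the 4 called names was 0.104 to 0.145, without BL_2 0.138 to 0.156, and without PEBs 0.05003 to 0.0558, in each case no longer under 0.05. The log2 fold changes of these names in the full fit were 8.58 (miR-199-3p), 9.46 (miR-199a-5p) and 9.68 (miR-214). In the same order they were 8.05, 9.09 and 8.80 without BL_1, and 8.36, 9.35 and 9.49 without PEBs. They fell further without PFFs, to 7.81, 8.72 and 8.63. Without BL_2 they were 8.23 for miR-199-3p and 8.96 for miR-199a-5p, and miR-214, with 0 reads in BL_1, has no usable fold. The log2 fold change of miR-199b-5p moved more, from 7.29 to 6.05 without BL_1 and 4.92 without PFFs. miR-199b-5p passed without ES-like cells (edgeR adjusted p = 0.0430) and without PFFs (adjusted p = 0.000441), and with 5 of 6 other scalings, filters, counts or tools. miR-214 passed with 5 of the 6 and missed with limma (adjusted p = 0.0538), while miR-199-3p and miR-199a-5p passed with each of the 6.

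**Figure D2:**
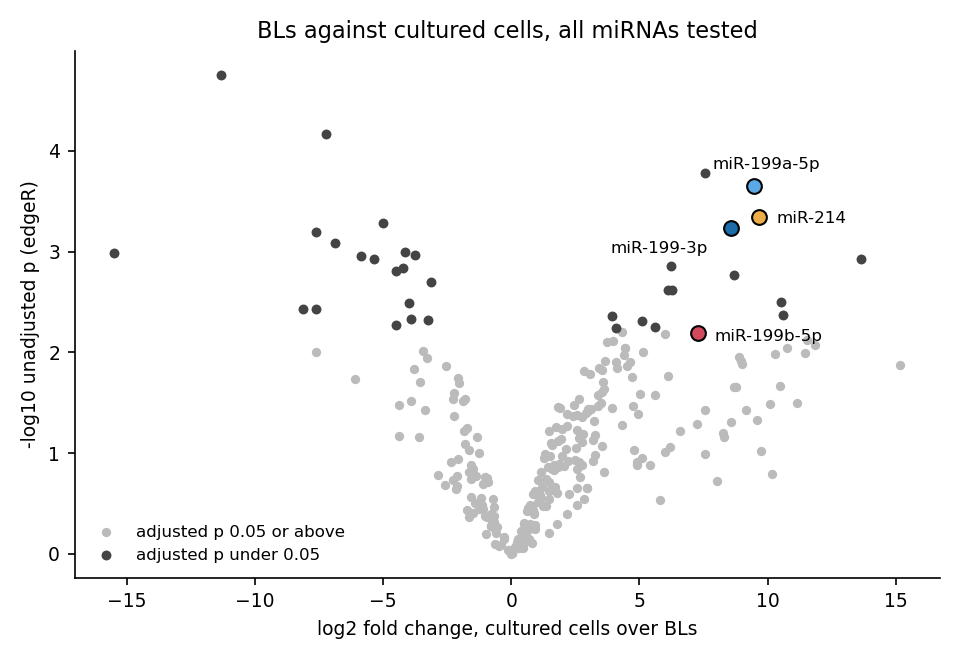
Log2 fold change of cultured cells over BLs against -log10 of the unadjusted p (edgeR) for the 295 miRNAs tested; dark points have an adjusted p under 0.05 and the 4 members are coloured and named. miR-199a-5p, miR-199-3p and miR-214 lie among the dark points on the right at 9.46, 8.58 and 9.68, and miR-199b-5p lies at 7.29 with an adjusted p of 0.0504.

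In RPM, the members together exceeded the mean of the BLs (201 ± 63.3 RPM, SD, n = 2) 221 times in ES-like cells, 563 times in PEBs and 387 times in PFFs. With TMM these ratios were 141, 534 and 638, and with DESeq2's size factors 139, 360 and 492, so that PFFs rather than PEBs had the highest. Against BL_1 alone the ratio for ES-like cells was 181, and against BL_2 alone 284. Each of the 4 members passed the study's 2-fold rule against BLs in each of the 3 cultures, where 54.9% (ES-like cells), 53.6% (PEBs) and 40.0% (PFFs) of the 295 miRNAs were higher by that rule, and 22.7%, 24.7% and 35.9% lower. Passing 2-fold was thus common in these comparisons. With 10 RPM added to each level, the median log2 ratio over all 295 was 0.73 for ES-like cells, 0.77 for their PEBs and 0.03 for PFFs. For miR-214, the ratio of ES-like cells over BL_2 was 448, and from the largest rows 452 (exact interval 125 to 3733, from 2 reads in BL_2). Over BL_1, ES-like cells were at least 12.2-fold higher from summed rows, with the limit of 3 reads in place of 0. For miR-199b-5p, ES-like cells were 31.9 times as high as BL_2 (20.8 to 51.7, largest row) and PFFs 168 times as high (110 to 272).

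PEBs were compared with the ES-like cells they came from. In RPM, miR-199-3p was 3.03 times, miR-214 2.40 times and miR-199b-5p 2.04 times as high in PEBs, and miR-199a-5p was 1.83 times as high, under 2-fold. Thus 3 of 4 members passed the 2-fold rule, where 20.7% of the 295 miRNAs were more than 2-fold higher and 25.4% more than 2-fold lower in PEBs. With a pseudocount of 10 RPM, the log2 ratio of miR-199b-5p fell from 1.03 to 0.997, just under 2-fold. miR-199a-5p passed with TMM scaling (edgeR's trimmed mean of M-values), at a log2 ratio of 1.44. The 4 members were higher in PEBs under each scaling tried. The ratios from the largest rows were 3.28 (exact interval 3.26 to 3.31), 2.62 (2.50 to 2.75), 2.22 (2.10 to 2.35) and 1.99 (1.98 to 2.01) in the same order.

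PFFs were compared with ES-like cells and with PEBs. In RPM, miR-199b-5p in PFFs stood at 5.60 times its level in ES-like cells and 2.75 times that in PEBs. The ratio over ES-like cells was 14.4 with TMM and 11.3 with DESeq2's size factors. Of the 295 miRNAs, 16.6% were more than 2-fold higher and 52.5% lower in PFFs than in ES-like cells, and 15.6% were higher and 45.1% lower than in PEBs. The other members lay closer together. In PFFs over ES-like cells, miR-199-3p had a ratio of 1.98, miR-214 of 1.60 and miR-199a-5p of 1.36. In PFFs over PEBs, they had ratios of 0.653, 0.667 and 0.743, all below 1. These last ratios turned with the scaling. The log2 ratio of PFFs over PEBs was -0.61 for miR-199-3p in RPM, 0.18 with TMM and 0.38 with DESeq2's size factors. For miR-199a-5p it was -0.43, 0.37 and 0.56, and for miR-214 it was -0.59, 0.21 and 0.41. The scalings also shifted the whole table, since the median log2 ratio of PFFs over PEBs over all 295 miRNAs was -0.41 in RPM, 0.02 with TMM and 0.09 with DESeq2's size factors. Relative to that median, the sum of the members stood at -0.13, 0.24 and 0.36. Which of PEBs and PFFs had the higher level of these 3 members was therefore not settled by the counts, and miR-199b-5p was higher in PFFs under each scaling, with log2 ratios from 1.46 in RPM to 2.45 with DESeq2's size factors. In PFFs over ES-like cells, miR-199-3p, miR-199a-5p and miR-214 passed 2-fold with TMM (log2 ratios of 2.35, 1.81 and 2.05) and with size factors (2.00, 1.46 and 1.70), and in RPM none of the 3 did. Here too the whole table shifted, with a median log2 ratio of -0.58 in RPM, 0.11 with TMM and -0.03 with size factors. Relative to this median, the sum of the members stood at 1.39, 2.07 and 1.86.

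**Figure D3:**
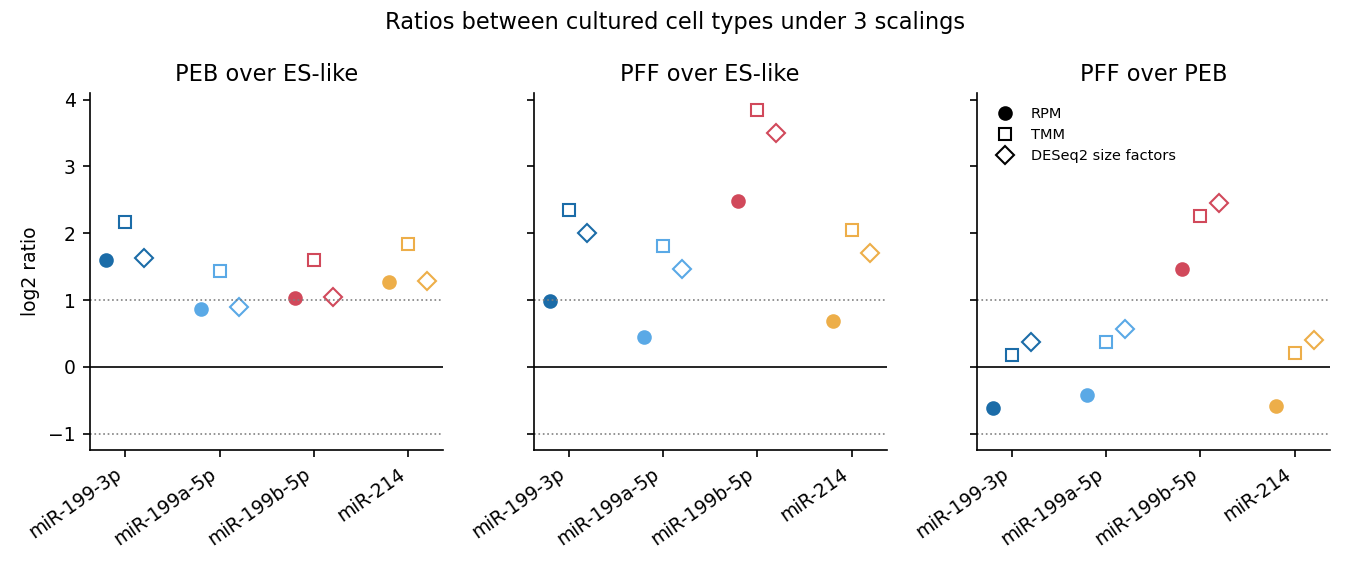
Log2 ratios of the 4 members between the cultured cell types, 1 library each, in RPM (filled circles), with TMM (squares) and with DESeq2's size factors (diamonds); dotted lines mark 2-fold. Over PEBs, miR-199b-5p in PFFs lies above 1 under each scaling, and the other 3 members change sign between RPM and both other scalings.

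Shares within a library do not depend on the scaling between libraries, and were computed from the largest rows so that a read was not taken at several precursors. The 3p arm made up 72.7% of the miR-199 reads of both arms in BL_1 (95% Wilson interval 43.4 to 90.3%, 8 of 11 reads) and 66.9% in BL_2 (59.6 to 73.4%). ES-like cells had 50.9% (50.6 to 51.2%), PEBs 63.0% (62.9 to 63.1%) and PFFs 57.5% (57.3 to 57.6%). The arms were thus nearly balanced in ES-like cells, and the 3p arm led in the other libraries. Arm shares of mir-199b alone and of mir-214 were not computed, because the 3p names are listed at several precursors and miR-214 had 1 row. The 3p counts at mir-199b and mir-199a-2 were equal in each library.

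The 5p arm differs between miR-199a and miR-199b, so it separates their reads. miR-199b-5p made up 36.2% of the miR-199-5p reads in BL_2 (25.1 to 49.1%, 21 of 58 reads). The share was 2.67% for ES-like cells (2.54 to 2.81%), 2.97% for their PEBs (2.90 to 3.03%) and 10.15% for PFFs (10.06 to 10.25%). BL_1 had 0 of 3 reads, with a Wilson upper bound of 56.1%. From summed rows, in which miR-199a-5p reads stand at a pair of precursors, the shares were 22.1% (BL_2), 1.35% (ES-like cells), 1.51% (PEBs) and 5.35% (PFFs). On either counting ES-like cells and PEBs were close to each other, PFFs stood over 3 times higher, and BL_2 was highest on few reads. miR-214 made up 3.57% of the reads of miR-214 and miR-199a-5p for ES-like cells (3.42 to 3.72%), 4.64% for PEBs (4.56 to 4.72%) and 4.18% for PFFs (4.11 to 4.25%), with 5.13% in BL_2 (1.42 to 16.9%, 2 of 39 reads). From summed rows, the shares of miR-214 were 1.82%, 2.37% and 2.14% in that order of the cultures. Across the cultured libraries, the share of miR-214 varied far less than that of miR-199b-5p.

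The row of mir-199a-1 held more miR-199a-3p reads than the row of mir-199a-2. This excess was 6.81% of the mir-199a-1 row for ES-like cells (6.61 to 7.02%), 5.82% for PEBs (5.75 to 5.88%) and 2.27% for PFFs (2.22 to 2.31%). It was 5.13% for BL_2 (2.37 to 10.7%, 6 of 117 reads) and rested on 1 of 8 reads for BL_1. It was lowest in PFFs, the culture with the highest share of miR-199b-5p. BL_2, with a higher share still (36.2%, on few reads), did not have a lower excess. A link between the excess and the share was not tested. Each value is from 1 library, and how reads were assigned to precursors was not stated in the sources used here.

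**Figure D4:**
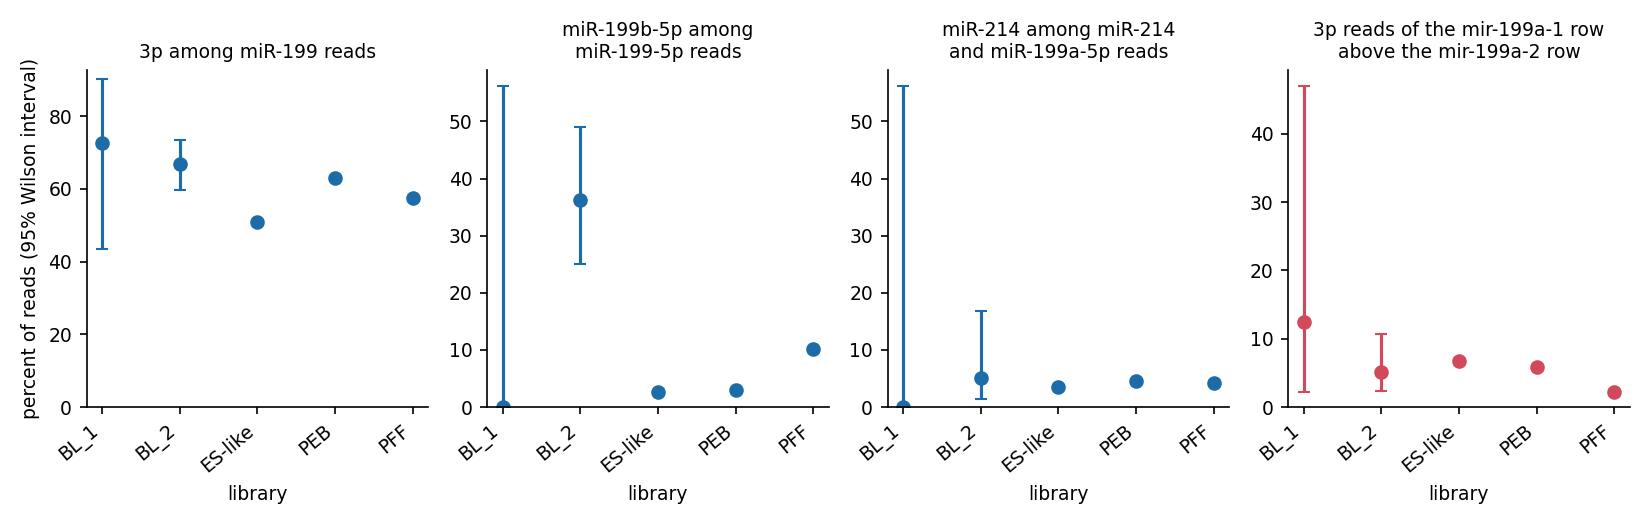
Percent of reads within each library, with 95% Wilson intervals and an axis of its own in each panel: the 3p arm among miR-199 reads, miR-199b-5p among miR-199-5p reads, miR-214 among miR-214 and miR-199a-5p reads (all from the largest rows), and the excess of the mir-199a-1 row over the mir-199a-2 row for miR-199a-3p. The share of miR-199b-5p is 10.15% in PFFs against 2.67% (ES-like cells) and 2.97% (PEBs), and the excess of mir-199a-1 is 2.27% in PFFs against 6.81% and 5.82%.

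The study also grouped BLs with ES-like cells as pluripotent, and PEBs with PFFs as differentiated. In this grouping none of the 5 member names was called by edgeR. edgeR's quasi-likelihood test called 0 of the 295 miRNAs (0%), while 30 had an unadjusted p under 0.05, limma called 0 (33 unadjusted) and DESeq2 called 15. DESeq2 gave no p for 4 of the 5 names, so it does not say whether they would be called, and its adjusted p for miR-199b-5p was 0.163. The members had log2 fold changes, differentiated over pluripotent, of 3.82 for miR-199-3p (standard error 2.11), 3.21 for miR-199a-5p (2.29), 4.58 for miR-199b-5p (1.91) and 3.48 for miR-214 (2.14), with edgeR adjusted p from 0.405 to 0.629. The median over all 295 was 0.52. Without ES-like cells, which leaves BLs against PEBs and PFFs, the 5 names had edgeR adjusted p from 0.00532 to 0.0430, and the log2 fold changes were 9.02, 9.83, 7.78 and 10.08 in the order above. With limma on all libraries they were 6.21, 6.26, 5.22 and 5.61. The library of ES-like cells, grouped as pluripotent, lay well above BL_2 for each member, with the smallest RPM ratio of 31.6 for miR-199b-5p.

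Other miRNAs associated with mesenchymal cells were taken from a list of 14. In cultured cells against BLs, 4 of the 14 were called higher by edgeR and 0 lower, beside 5.42% of all tested miRNAs called higher, and their median log2 fold change was 5.22 beside 1.30 over all. miR-29a, known to repress collagen genes, had 8.79 and 17.3 RPM in the BLs, whereas ES-like cells, PEBs and PFFs had 3486, 3177 and 1910 RPM (log2 fold change 7.54 ± 0.96, edgeR adjusted p = 0.0162). miR-143-3p, a smooth muscle and stromal miRNA, had 17.6 and 60.4 RPM in the BLs against 13226, 17917 and 101507 RPM in the cultures in that order, with an edgeR adjusted p of 0.0385. Its cluster partner miR-145-5p, with 0 and 3 reads in the BLs, reached 321, 328 and 2692 RPM (edgeR adjusted p = 0.0443). miR-152, which shares its seed with miR-148, was the other member of the list to be called. miR-21, raised in many proliferating and fibrotic tissues, was not called (edgeR adjusted p = 0.168), with 38578 and 69981 RPM in the BLs and 154848, 188743 and 522808 RPM in the cultures. miR-143-3p, miR-145-5p and miR-21 were highest in PFFs by a wide margin in RPM, a scale on which miR-199-3p, miR-199a-5p and miR-214 were highest in PEBs, though not with TMM or size factors. miR-21 made up 75.9% to 89.1% of the summed level of the list in each library. The list without miR-21 summed to 12265 and 8588 RPM for the BLs, 34651 for ES-like cells, 39233 for their PEBs and 143525 for PFFs, a sum chosen after the values had been seen. All 14 had reads in each cultured library, but not all followed this order. miR-31 had 1104 RPM in PEBs and 23.1 in PFFs. miR-222 had 2057 and 1132 RPM in the BLs and 164, 322 and 1038 RPM in the cultures, with a log2 fold change of -1.16 (edgeR adjusted p = 0.458).

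Of an epithelial list of 8, miR-205 and miR-429 were in the table. miR-205, which keeps up epithelial identity by repressing ZEB factors, was lower in cultured cells (log2 fold change -7.61, edgeR adjusted p = 0.0409), with 4748 and 5753 RPM in the BLs. ES-like cells had 21.03 RPM of miR-205, PEBs 71.7 and PFFs 0.702. miR-429, of the miR-200 family, had no read in BL_1 and 23.4 RPM in BL_2, while ES-like cells had 1199 RPM, PEBs 718 and PFFs 0.0739. ES-like cells and PEBs thus held both miR-429 and the miR-199 and miR-214 members, and PFFs held the latter almost without the epithelial pair. Of a pluripotency list of 12, 7 were in the table, and their median log2 fold change in cultured cells over BLs was 4.73, beside 1.30 over all, with 5 fitted higher, 0 called higher and 1 called lower. The one called lower was miR-371-5p, of an early embryo cluster, at 324635 and 296148 RPM in the BLs and at most 30.9 RPM in the cultures (edgeR adjusted p = 0.0220). It made up 85.6% and 85.9% of the list's sum in the BLs. Without it, the list summed to 54781 and 48707 RPM for the BLs, 134338 for ES-like cells, 64349 for their PEBs and 7685 for PFFs. These sums were mostly miR-92a, at 53937 and 47804 RPM in the BLs and 77449, 46699 and 6544 RPM in the cultures. miR-363 added 41258 RPM in ES-like cells, so the sums say little about the rest of the list. In RPM, 5 of the 7 were more than 2-fold higher in ES-like cells than in BLs, beside 54.9% of the 295 miRNAs tested. PFFs were more than 2-fold below ES-like cells for all 7, beside 52.5% of the 295. The part of mouse feeder cells in the level of miR-199 and miR-214 in ES-like cells was not tested.

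**Figure D5:**
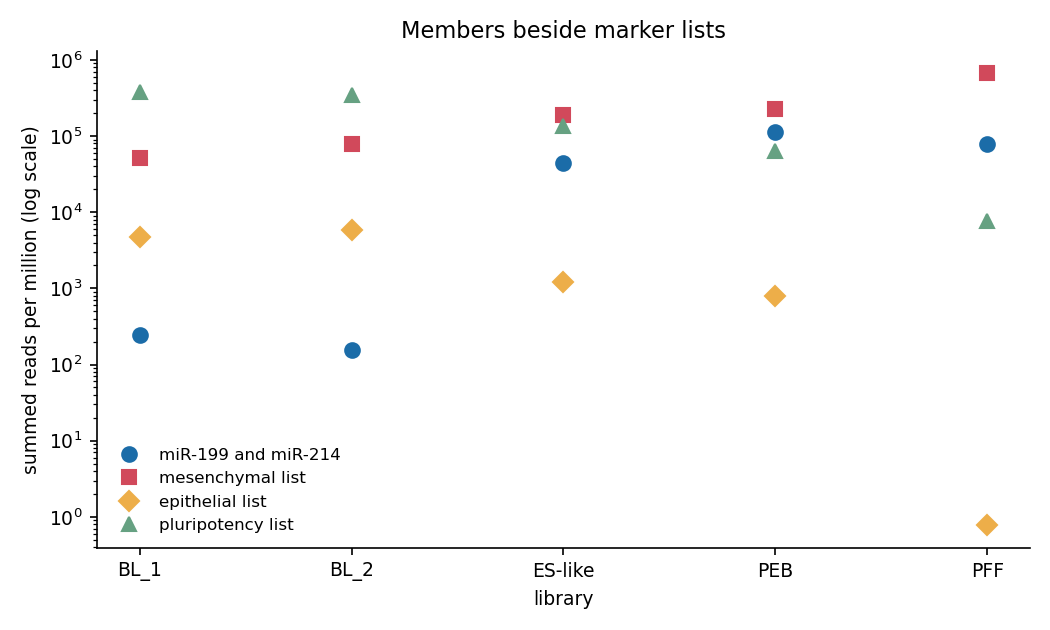
Summed RPM (log axis) of the 4 members and of the mesenchymal, epithelial and pluripotency lists in each library. The members rise from 246 and 157 RPM in the BLs to between 44468 and 113500 RPM in the cultures, the epithelial list falls to 0.776 RPM in PFFs, and the pluripotency list is highest in the BLs through miR-371-5p, without which it is highest in ES-like cells, at 134338 RPM.

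Among the members, profiles over the 5 libraries on log2(RPM + 10) were alike. Pearson's r was 0.998 between miR-199-3p and both miR-199a-5p and miR-214, and 0.954 to 0.964 between miR-199b-5p and the others. Of 282 other miRNAs with at least 10 reads in 2 or more libraries, the 5 with the highest r to the summed members were miR-152 (0.995), miR-376a-3p (0.990), miR-125b (0.989), let-7i (0.989) and miR-542-3p (0.989). miR-152 had 26.4 and 24.1 RPM in the BLs and 1103, 1576 and 2168 RPM in ES-like cells, PEBs and PFFs. miR-542-3p had 17.6 and 9.35 RPM in the BLs and 187, 434 and 466 RPM in the cultures. Unlike the members, miR-125b was well above the low range in the BLs, at 967 and 1117 RPM, as was let-7i, at 510 and 776 RPM. miR-376a-3p had at most 13 reads in any library, so its r rests on levels far under the 10 RPM added. The points share libraries and depth, and with TMM scaling 1 of these 5 stayed among the 5 closest.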

How the data were processed

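miRNA reads of 5 libraries were analysed from 1 deposited table, which holds raw counts for each pair of mature miRNA and precursor. According to the methods and processing notes of the submitters, the authors trimmed reads with Cutadapt 1.10, aligned them with Bowtie 1.1.1 to the pig genome (Sscrofa10.2) and counted miRBase miRNAs with miRDeep2. How reads that match several precursors were counted was not given in the sources used here. Columns were assigned to libraries by the sample names in the labels. The table of predicted loci was not used here.

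Counts were summed over the precursor rows of each name (1 row that occurs a second time in the table was summed as it stands), or the largest row was taken. Of 57 names with several precursors and a read, 47 had rows whose counts over the libraries differed by at most 10%. RPM used the total of mature reads, ratios used BLs as the mean of 2 libraries, and shares have 95% Wilson intervals. Ratios between single libraries have exact conditional binomial intervals. Both comparisons used edgeR 4.0.16 (quasi-likelihood test, TMM, more than 5 reads in at least 2 libraries, Benjamini-Hochberg adjustment over all miRNAs tested, threshold 0.05), and alternatives used limma 3.58.1 (voom) and DESeq2 1.42.0, in R 4.3.3 and Python 3.11.15. Standard errors were derived from edgeR's F statistic. The edgeR steps were tested on simulated data. Other scalings, filters, pseudocounts, the largest row and the omission of single libraries were tried.

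The text names all members, genes of the mesenchymal, epithelial and pluripotency lists, and the 5 miRNAs with the profile most like the members. Members and lists were chosen with earlier results of these data known, and the shares of miR-199b-5p and miR-214 and the comparison of precursor rows were chosen after the values had been seen. Blood cell and skeletal muscle lists were also summed. Mature sequences were not printed.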

Additional observations from a re-analysis of the deposited data

How the results depend on the processing

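The log2 fold changes of the 5 member names in cultured cells over BLs kept their sign under all 11 alternatives, and with another scaling, filter, counting or tool miR-199-3p and miR-199a-5p passed in 6 of 6 and miR-214 and miR-199b-5p in 5 of 6. Calls over all miRNAs numbered 100 with DESeq2 and 22 with limma, beside 35, and 1 to 116 when single libraries were left out: 2 without BL_1, 1 without BL_2, 1 without PEBs and 116 without PFFs. For pluripotent against differentiated libraries, DESeq2 called 15, beside 0, and fits without single libraries called 0 to 25, with the 25 reached without ES-like cells. Where BL_1 or BL_2 was left out, the lone BL library was assumed to vary like the others, and with BL_1 alone the fitted folds of miR-214 and miR-199b-5p, at 0 reads there, give no size. The log2 ratio of the summed members in PFFs over ES-like cells was 0.81, and became 2.18 with TMM and 1.83 with DESeq2's size factors. In PFFs over PEBs it was -0.54, and turned to 0.26 and 0.45. Single members turned to 0.18 and 0.38 (miR-199-3p), 0.37 and 0.56 (miR-199a-5p), and 0.21 and 0.41 (miR-214). miR-21 alone stood at 522808 RPM in PFFs, and its part in these shifts was not tested. From summed rows in place of the largest, the 3p share was 78.1% for BL_2 (66.9%), 60.1% for ES-like cells (50.9%), 71.3% for their PEBs (63.0%) and 67.8% for PFFs (57.5%), since 3p reads stand in 3 rows and miR-199a-5p reads in 2. No paired analysis was possible because each cultured group has 1 library, so the groups share at most 1 replicate number, which no label ties to a batch. Depth limits BL_1 most, where the members had 11 reads in their largest rows.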

Other observations

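Blood cell and skeletal muscle miRNAs were taken from lists of 6 each. Of the blood cell list, 5 were in the table, and their summed level was 106 and 65.4 RPM for the BLs, 56.3 for ES-like cells, 91.9 for their PEBs and 3.58 for PFFs. miR-486 made up 100% and 75.8% of the sums of the BLs and was lower in cultured cells (log2 fold change -3.98, edgeR adjusted p = 0.0385). The median log2 fold change of the 5 was 2.55, beside 1.30 over all miRNAs tested, with 3 fitted higher and 0 called higher. In RPM, 4 were more than 2-fold higher in ES-like cells than in BLs, beside 54.9% of the 295 miRNAs tested. These 4 had 0 reads in BL_1 and only 6.75 to 18.2 RPM in ES-like cells. Their ratios therefore rest on values below the 26.4 RPM that 0 reads in BL_1 leave possible. The 6 muscle miRNAs had 1231 and 2626 RPM in the BLs and 403, 643 and 1087 RPM in ES-like cells, PEBs and PFFs. The median log2 fold change in cultured cells over BLs of the muscle list (edgeR) was -0.90, beside 1.30 over all miRNAs tested.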
